A study of Mus musculus with 12 samples.

Results

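Genes of the MHC class I presentation pathway were followed in RNA-seq of Cd140a+ (*Pdgfra*+) cells sorted from mouse lung. The 10 genes were chosen by name, as *H2-K1*, *H2-D1*, *B2m*, *Tap1*, *Tap2*, *Tapbp*, *Psmb8*, *Psmb9*, *Psmb10* and *Nlrc5*, out of 40760 genes in the count table. All 10 were found in it and all 10 passed the filter on low counts, which kept 17418 genes, and none had fewer than 210 counts in any library. The 12 libraries were labelled as wild type with vehicle (WT vehicle), *Pear1*-/- with vehicle, wild type with bleomycin (WT bleo) and *Pear1*-/- with bleomycin, 3 libraries each. Bleomycin is a DNA-damaging drug that scars the lung when given into the airways. In general, mice of the study were male, on a C57BL/6 background and 8 to 12 weeks old. The *Pear1*-/- allele is a cassette between exons 6 and 7 that is meant to stop *Pear1* expression in every cell and not in fibroblasts alone. How many mice stood behind a library, the dose and the day of harvest for these libraries are not given in the sources used here.

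MHC class I molecules show peptides from inside a cell to CD8 T cells and natural killer cells. The proteasome cuts proteins into peptides, the TAP transporter moves these into the endoplasmic reticulum, and tapasin holds the empty class I molecule beside TAP until a peptide fits. Interferons induce most of this pathway. They replace the catalytic subunits of the standard proteasome by those of the immunoproteasome, and they raise NLRC5, which activates class I promoters. Nearly every nucleated cell carries class I, and leukocytes carry more than fibroblasts at rest.

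Libraries held between 6702948 and 10447101 counts. The labels do not say that replicates came from separate mice, so p-values measure only the spread between these libraries, which may be technical. Between libraries of a group, chi-square divided by its degrees of freedom (near 1 where only counting noise separates a pair) ran from 1.37 to 26.0 over 12 pairs, and the highest values involved WT vehicle replicate 2. This library stood apart from the other WT vehicle libraries in the presentation genes as well. Its counts were above both of them for 10 of 10 genes, and for 8 of 10 they lay within the range of the *Pear1*-/- vehicle libraries. The share of all genes above both was not counted, so the 10 of 10 cannot be read as particular to these genes. Over all genes tested, WT vehicle replicate 2 lay within the *Pear1*-/- vehicle range for 57.8%, against 24.4% for WT vehicle replicate 1 and 23.3% for replicate 3. Whether its label is right was not tested, and a wrong label cannot be told apart here from another difference of this library. Counts over the 10 genes and each gene's changes that use the WT vehicle group are therefore given with and without WT vehicle replicate 2. *Pear1* itself was not lower in the libraries labelled *Pear1*-/-. It had 519 to 576 normalized counts in WT vehicle and 501 to 547 in the libraries labelled *Pear1*-/- vehicle, a log2 fold change of -0.078 (adjusted p = 0.47), and 239 to 266 and 344 to 372 after bleomycin, where the groups did not overlap and the libraries labelled *Pear1*-/- were higher, by 0.48 on the log2 scale (adjusted p = 0.00012). A count over the whole gene also takes reads before the cassette. Genotypes below are those of the labels.

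In WT libraries, 8 of the 10 presentation genes rose with bleomycin and none fell. The background in that comparison was 31.4% of genes higher and 36.6% lower at an adjusted p under 0.05 in edgeR's quasi-likelihood test. Their median log2 fold change was 0.73, against -0.071 over all genes tested. Without WT vehicle replicate 2, 9 rose, where 31.7% of all genes did, and the median was 0.90. In the libraries labelled *Pear1*-/-, by contrast, 1 of the 10 rose with bleomycin and 4 fell, where 28.9% of genes were higher and 33.4% lower, and the median was -0.0029. Between the 2 bleo groups, all 10 were lower in the libraries labelled *Pear1*-/-, with no overlap between the 3 libraries of either group for any of the 10. Over all genes tested, 22.1% were called higher and 23.9% lower, and 31.6% were lower with no overlap. The median of the 10 was -0.53, against -0.013 over all genes. Between the vehicle groups none of the 10 passed the test (background 0.855% higher and 3.65% lower), with a median of 0.26. There, 8 of the 10 were higher at an unadjusted p under 0.05, as were 14.6% of all genes, and the count was 3 when WT vehicle replicate 1 or 3 was left out or when only the vehicle groups were fitted, and 4 with upper quartile factors or when *Pear1*-/- vehicle replicate 3 was left out. DESeq2's Wald test and limma passed 0 of the 10 after adjustment as well. Without WT vehicle replicate 2 all 10 were higher in *Pear1*-/- vehicle, with a median of 0.46 and 25.5% of all genes higher, and without a filter on low counts 7 were, with 5.66% of all genes higher. In bulk RNA, fewer cells of a type and less RNA per cell cannot be told apart.

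The difference between the bleomycin effects of the 2 genotypes was tested as an interaction over the 12 libraries. It was below 0 for all 10 genes at an adjusted p under 0.05, where 17.9% of genes were above and 19.1% below 0. The median interaction was -0.84 on the log2 scale, and -1.06 without WT vehicle replicate 2, with 10 of 10 below 0 there too, where 20.4% of all genes were above and 26.0% below 0. These comparisons share libraries, so they are not independent of each other. At the study's criterion of a fold change above 2 with an adjusted p under 0.05, only *Psmb8* of the 10 passed between WT bleo and WT vehicle (10.5% of genes passed in that direction). Leaving out WT vehicle replicate 2, 4 passed, *B2m*, *Nlrc5*, *Psmb8* and *Psmb9*, and 11.4% of genes did. None of the 10 passed it between the bleo groups, where 8.76% of genes passed in the lower direction.

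**Figure D1:**
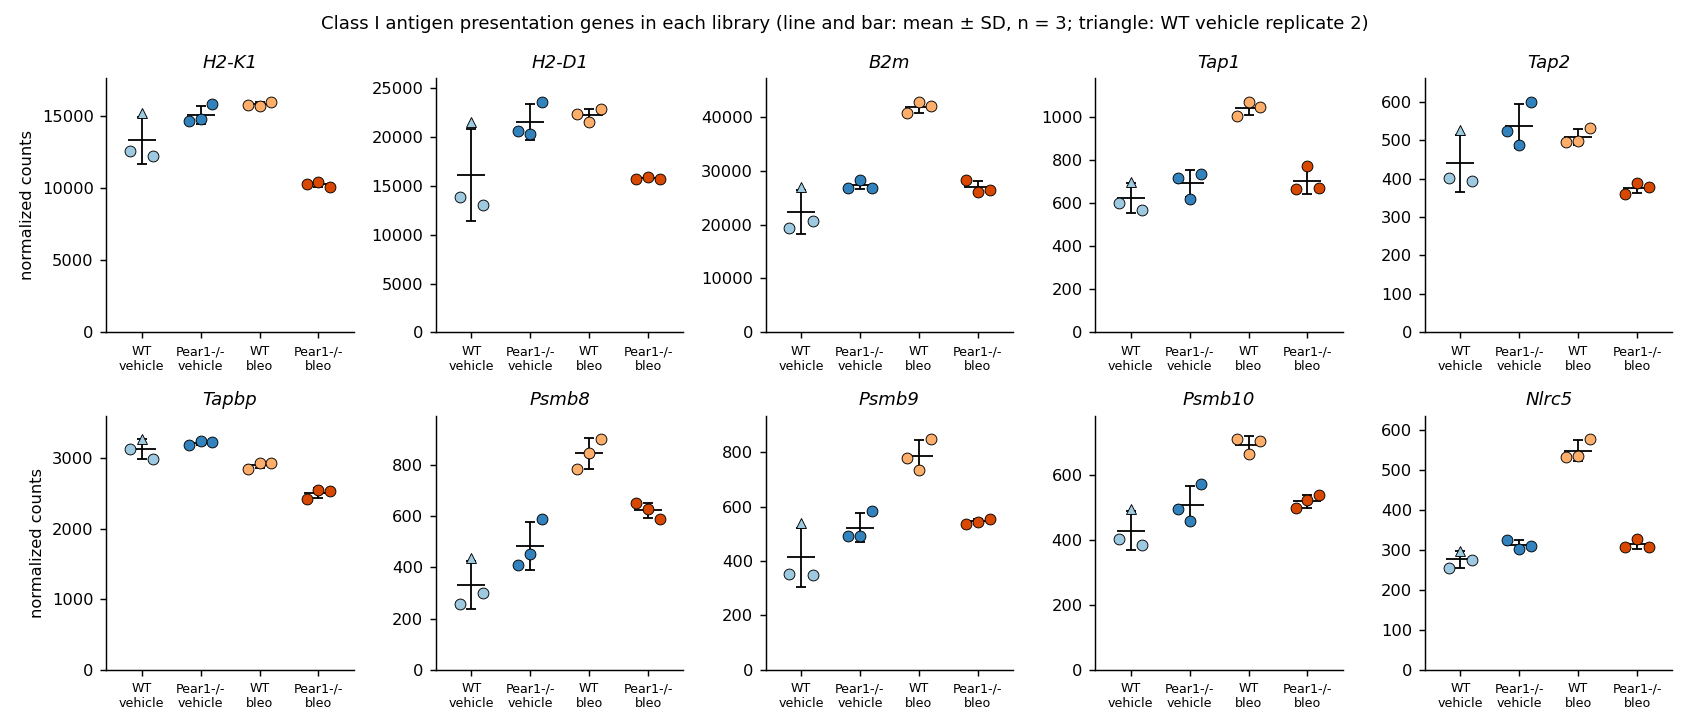
Normalized counts (vertical axis, from 0, a separate scale per gene) of the 10 presentation genes in each of the 12 libraries, by group. Points are libraries, the triangle is WT vehicle replicate 2, and lines with bars are means ± SD (n = 3). The 3 WT bleo libraries lie above the 3 *Pear1*-/- bleo libraries in every panel, and the triangle lies above both other WT vehicle libraries in every panel.

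*H2-K1* and *H2-D1* encode the classical class I heavy chains H-2K and H-2D of C57BL/6 mice, and *B2m* encodes the light chain, beta-2 microglobulin, that both need to reach the cell surface. *H2-K1* (ENSMUSG00000061232) lies at chr17:33996017-34000347 on the minus strand of GRCm38 and *H2-D1* (ENSMUSG00000073411) at chr17:35262730-35267499 on the plus strand, both in the MHC region of chromosome 17. *B2m* (ENSMUSG00000060802) lies outside it, at chr2:122147686-122153083 on the plus strand. The RefSeq promoter windows of these 3 genes, of 300 bases from 250 before to 50 after the start, share a pair of short motifs at a fixed spacing. It is the arrangement of the SXY module, the class I promoter element at which RFX, CREB/ATF and NF-Y proteins bind and NLRC5 acts. The stretch of the *H2-K1* promoter that holds it, chr17:34000349-34000468 on the minus strand of GRCm38.p6, is shown first, because it also holds a kappa-B motif and an interferon-response motif. Capitals mark the motifs GGGGATTCCCC, TTTCNNTTC, TGACG and ATTGG, from 5′ to 3′.
H2-K1: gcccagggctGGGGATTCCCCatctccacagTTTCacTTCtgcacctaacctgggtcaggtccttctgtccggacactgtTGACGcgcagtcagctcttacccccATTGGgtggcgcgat
The SXY-type element was then aligned between genes. It is given for *H2-K1* (chr17:34000359-34000388), *H2-D1* (chr17:35262993-35263022, plus strand), *B2m* (chr2:122147609-122147638, plus strand) and *H2-M3* (chr17:37270188-37270217, plus strand), a further class I chain described below and chosen here because its window held the same arrangement. Capitals mark TGACG and ATTGG, which are 20 bases apart in each.
H2-K1: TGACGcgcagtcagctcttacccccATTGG
H2-D1: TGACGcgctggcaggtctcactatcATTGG
B2m: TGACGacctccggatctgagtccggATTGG
H2-M3: TGACGcttctccaattcccattctaATTGG
The *H2-K1* and *H2-D1* elements differ at 7 of 30 bases, *H2-K1* and *B2m* at 17, and *H2-K1* and *H2-M3* at 13. Upstream of it, *H2-K1* (chr17:34000429-34000458) and *H2-D1* (chr17:35262923-35262952) carry the kappa-B and interferon-response motifs in nearly the same letters, with capitals marking these motifs.
H2-K1: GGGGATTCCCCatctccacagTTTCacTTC
H2-D1: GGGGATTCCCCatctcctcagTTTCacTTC
These differ at 1 of 30 bases. The TGACG to ATTGG arrangement was found on either strand in 0.0944% of all 32851 promoter windows, GGGGATTCCCC in 0.0304% and TTTCNNTTC in 7.52%. Of the 8 presentation genes in the promoter table, the arrangement was found in 3, and the other motifs in *H2-K1* and *H2-D1* alone. The letters and the spacing were fixed with these sequences in view, and GGGGATTCCCC was read from the *H2-K1* window itself. *Tap2* and *Nlrc5* were not in the promoter table.

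Per length of exon, *B2m* had the highest level of the 10 genes, with 3038 ± 313 RPKM (counts scaled to exon length and library total, SD, n = 3) in WT vehicle and 5459 ± 143 in WT bleo. *H2-D1* followed, with 728 ± 150.3 and 969 ± 29.8 RPKM, and then *H2-K1*, with 532 ± 22.5 and 604 ± 7.04. The order of the 3 means over all 12 libraries was the same with the length of the longest coding transcript, but in WT vehicle *H2-K1* was then above *H2-D1*. Of 100-base stretches of the *H2-D1* transcript, 4.64% occur unchanged in another gene, mostly *H2-Q1*, so a part of its reads cannot be placed with certainty. *H2-K1* and *B2m* had no such stretch.

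*H2-K1* had 12532, 15154 and 12179.7 normalized counts in WT vehicle replicates 1, 2 and 3, and 14653, 14743 and 15793 in *Pear1*-/- vehicle. After bleomycin it had 15767, 15642 and 15976 in WT and 10248, 10437 and 10054 in *Pear1*-/-. The *Pear1*-/- bleo libraries were below all 9 others, while the other 3 groups overlapped with their neighbours through WT vehicle replicate 2 and the highest *Pear1*-/- vehicle library. Its log2 fold change with bleomycin was 0.26 (standard error 0.071, adjusted p = 0.00434) in WT and -0.55 (standard error 0.071, adjusted p = 8.62e-06) in *Pear1*-/-. *Pear1*-/- bleo minus WT bleo was -0.64 (standard error 0.071, adjusted p = 3.32e-06). With upper quartile factors the rise in WT was 0.12 and was not called (adjusted p = 0.0825).

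*H2-D1* had 13803, 21475 and 12983 normalized counts with vehicle and 22342, 21526 and 22845 with bleomycin in WT, against 20611, 20279 and 23621 and 15741, 15944 and 15671 under the *Pear1*-/- label. WT vehicle replicates 1 and 3 were the lowest of all libraries and the *Pear1*-/- bleo libraries came next, while WT bleo overlapped with *Pear1*-/- vehicle. *H2-D1* rose by 0.48 (standard error 0.13, adjusted p = 0.0049) on the log2 scale in WT and changed by -0.44 (standard error 0.13, adjusted p = 0.00923) in *Pear1*-/-. The fall in *Pear1*-/- lost its call without *Pear1*-/- vehicle replicate 3, and the rise in WT was 0.81 without WT vehicle replicate 2. *Pear1*-/- bleo minus WT bleo gave -0.51 (standard error 0.13, adjusted p = 0.00563).

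*B2m* had 19341, 26887 and 20564 normalized counts with vehicle and 40629.6, 42806 and 41922 with bleomycin in WT, against 26842, 28175 and 26804 and 28274, 26010.2 and 26318 under the *Pear1*-/- label. The WT bleo libraries stood above all 9 others, and the 2 groups labelled *Pear1*-/- overlapped. *B2m* rose by 0.92 (standard error 0.09, adjusted p = 3.32e-07) in WT. In *Pear1*-/- bleomycin gave -0.017 (standard error 0.089, adjusted p = 0.875) on the log2 scale, and *Pear1*-/- bleo minus WT bleo was -0.65 (standard error 0.09, adjusted p = 2.7e-05). With bleomycin in *Pear1*-/-, both heavy chains thus fell while the light chain did not pass the test.

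*Tap1* and *Tap2* encode the 2 chains of the peptide transporter, and *Tapbp* encodes tapasin. *Tap1* (ENSMUSG00000037321, chr17:34187553-34197225) and *Tap2* (ENSMUSG00000024339, chr17:34203527-34216321) lie within the same stretch of chromosome 17 as *Psmb8* and *Psmb9*, and *Tapbp* (ENSMUSG00000024308, chr17:33915899-33929292) lies close to *H2-K1*. The RefSeq starts of *Tap1* and *Psmb9* lie 225 bases apart on opposite strands, and their promoter windows share 275 bases. Their annotated exons also share 212 bases on opposite strands, and the library kit does not keep the strand, so reads there cannot be told apart.

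*Tap1* had 602, 701 and 569 normalized counts with vehicle and 1008, 1074 and 1049.8 with bleomycin in WT, against 719, 621 and 739 and 666, 772 and 673 under the *Pear1*-/- label. The WT bleo group stood clear of the others, and neighbouring groups among the other 3 overlapped. *Tap1* rose by 0.75 (standard error 0.092, adjusted p = 3.91e-06) in WT, and in *Pear1*-/- its log2 fold change with bleomycin was 0.028 (standard error 0.092, adjusted p = 0.805). *Pear1*-/- bleo minus WT bleo was -0.58 (standard error 0.091, adjusted p = 9.1e-05).

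*Tap2* had 401, 526 and 393 normalized counts with vehicle and 495, 499 and 532 with bleomycin in WT, against 524, 486 and 600.2 and 361, 388 and 378 under the *Pear1*-/- label. As for *H2-K1*, all *Pear1*-/- bleo libraries were below the 9 others. Bleomycin in WT gave 0.22 (standard error 0.11, adjusted p = 0.0812) on the log2 scale, which passed only without WT vehicle replicate 2, at 0.43, and without a filter on low counts, at 0.34. *Tap2* fell in *Pear1*-/-, with -0.51 (standard error 0.11, adjusted p = 0.000666), and between the bleo groups the difference was -0.45 (standard error 0.11, adjusted p = 0.00268).

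*Tapbp* varied least. It had 3125, 3270.4 and 2987 normalized counts with vehicle and 2844, 2925 and 2926 with bleomycin in WT, against 3186, 3246 and 3223 and 2421, 2553 and 2529 under the *Pear1*-/- label. Both bleo groups lay below both vehicle groups, with *Pear1*-/- bleo the lowest. In WT the difference was -0.098 (standard error 0.06, adjusted p = 0.162), and it passed as lower with upper quartile factors (-0.25) and with DESeq2's Wald test (-0.11). *Tapbp* fell in *Pear1*-/-, with -0.36 (standard error 0.06, adjusted p = 0.00011). Between the bleo groups it was lower, at -0.23 (standard error 0.06, adjusted p = 0.00647), a call that was lost when no gene was filtered out (0.148) and without WT bleo replicate 2, WT bleo replicate 3 or *Pear1*-/- bleo replicate 1.

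**Figure D2:**
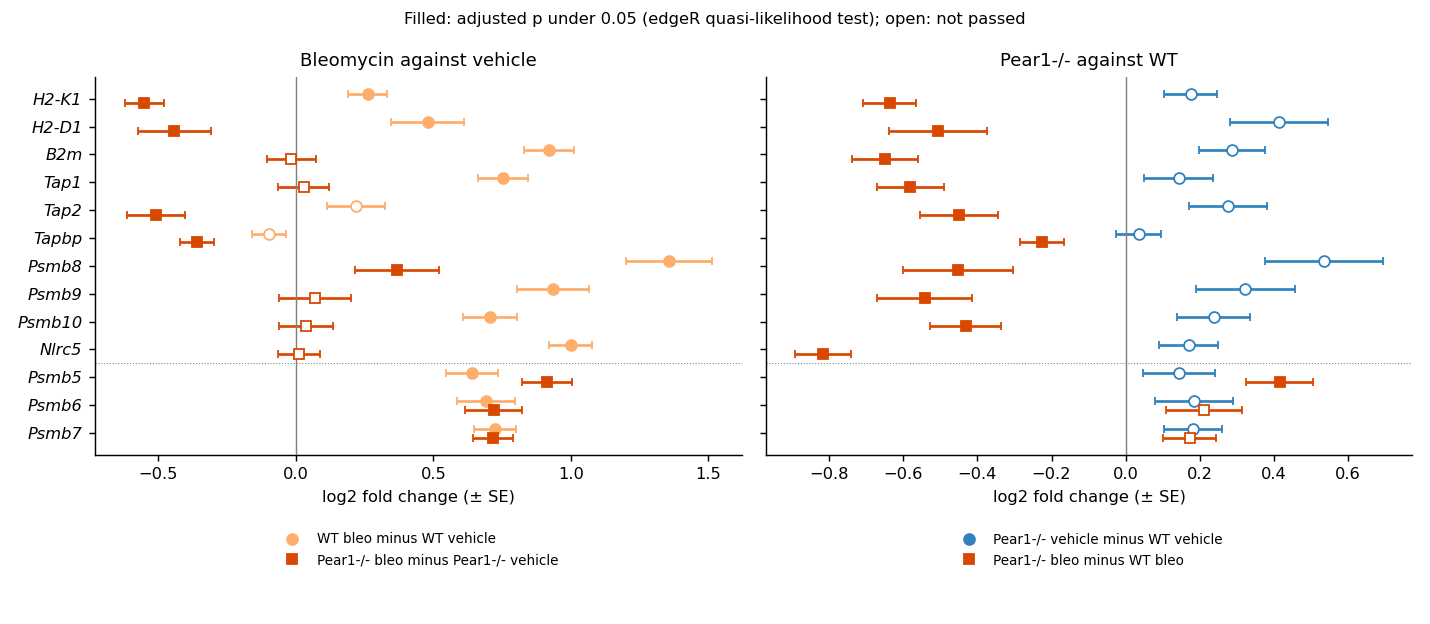
Log2 fold changes (horizontal axis, bars are standard errors) of the 10 presentation genes and, under the dotted line, of the 3 constitutive proteasome subunits, with bleomycin against vehicle on the left and *Pear1*-/- against WT on the right. Filled symbols passed an adjusted p of 0.05. With bleomycin, the 10 genes spread from -0.10 to 1.36 in WT and from -0.55 to 0.37 in *Pear1*-/-, while the constitutive subunits lie between 0.64 and 0.91 in both.

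*Psmb8*, *Psmb9* and *Psmb10* encode the 3 inducible catalytic subunits of the immunoproteasome, which take the places of *Psmb5*, *Psmb6* and *Psmb7*. *Psmb8* (ENSMUSG00000024338, chr17:34197721-34201454) and *Psmb9* (ENSMUSG00000096727, chr17:34181987-34187764) flank *Tap1*, and *Psmb10* (ENSMUSG00000031897, chr8:105935735-105938444) lies on another chromosome.

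*Psmb8* had 258, 435 and 299.9 normalized counts with vehicle and 785, 849 and 903 with bleomycin in WT, against 411, 455 and 590.4 and 651, 628 and 591 under the *Pear1*-/- label. The bleo groups were clear of each other, and *Pear1*-/- bleo was above *Pear1*-/- vehicle by less than 1 count at the nearest pair of libraries. *Psmb8* had the largest rise of the 10 genes in WT, 1.36 (standard error 0.16, adjusted p = 2.1e-06), and was the gene that rose in *Pear1*-/-, by 0.37 (standard error 0.15, adjusted p = 0.0464). That second call did not hold with DESeq2 size factors, upper quartile factors, DESeq2's Wald test or limma, nor without 8 of the 12 libraries, one at a time. *Pear1*-/- bleo minus WT bleo was -0.45 (standard error 0.15, adjusted p = 0.0215), which limma put at an adjusted p of 0.0853 and which was lost without WT bleo replicate 2 or 3 or any one *Pear1*-/- bleo library.

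*Psmb9* had 353, 539 and 350.3 normalized counts with vehicle and 778, 736 and 849 with bleomycin in WT, against 492, 491 and 584 and 537, 545 and 555 under the *Pear1*-/- label. *Psmb10* had 403, 496 and 385 with vehicle and 711, 663 and 705 with bleomycin in WT, against 494, 458 and 571 and 497, 522 and 537 under the *Pear1*-/- label. For both genes WT bleo stood above the other 3 groups, and neighbouring groups among those overlapped. *Psmb9* rose in WT by 0.94 (standard error 0.13, adjusted p = 1.68e-05) and *Psmb10* by 0.70 (standard error 0.098, adjusted p = 1.49e-05). In *Pear1*-/- their log2 fold changes were 0.069 (adjusted p = 0.664) and 0.036 (adjusted p = 0.763). With bleomycin, both were lower in *Pear1*-/- than in WT, with differences of -0.54 (adjusted p = 0.00284) and -0.43 (adjusted p = 0.00182) on the log2 scale.

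The constitutive subunits rose with bleomycin in both genotypes. *Psmb5* had 288 ± 18.8 normalized counts with vehicle and 446 ± 15.4 with bleomycin in WT, against 321 ± 44.1 and 601 ± 32.2 under the *Pear1*-/- label (SD, n = 3). *Psmb6* and *Psmb7* had the same order of groups, with *Pear1*-/- bleo highest. *Psmb5*, *Psmb6* and *Psmb7* rose by 0.64, 0.69 and 0.73 in WT, and by 0.91, 0.72 and 0.72 in *Pear1*-/-, all with an adjusted p under 0.05. None of the 3 passed the interaction test, and *Psmb5* alone was higher in *Pear1*-/- bleo than in WT bleo, by 0.42 (standard error 0.09, adjusted p = 0.00141), and 2 of the 3 were when WT vehicle replicate 2 was left out of the fit. Of 100-base stretches of the *Psmb5* transcript, 24.9% also occur in another gene, mostly *Gm3375*, and *Psmb7* shares exonic bases with *Nek6* on the opposite strand, so their counts are less certain.

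Dividing an inducible by its constitutive subunit within a library removes depth and normalization. The log2 ratio of *Psmb8* to *Psmb5* counts was -0.047, 0.55 and -0.0055 with vehicle and 0.86, 0.88 and 1.03 with bleomycin in WT, against 0.42, 0.67 and 0.67 and 0.071, 0.16 and -0.068 under the *Pear1*-/- label. It was higher in WT bleo than in WT vehicle by 0.75, and lower in *Pear1*-/- bleo than in *Pear1*-/- vehicle, at -0.54. For *Psmb9* to *Psmb6* the same differences were 0.26 and -0.65. The ratio of *Psmb10* to *Psmb7* differed by -0.0097 with bleomycin in WT (exact permutation test, two-sided, p = 1), with overlapping groups, and by -0.68 in *Pear1*-/-. Without WT vehicle replicate 2 the differences with bleomycin in WT were 0.95 for *Psmb8* to *Psmb5*, 0.33 for *Psmb9* to *Psmb6* and 0.11 for *Psmb10* to *Psmb7*, the last with its sign turned. All 3 ratios were lower in *Pear1*-/- bleo than in WT bleo, at -0.87, -0.75 and -0.60. In the vehicle libraries the groups overlapped for all 3 through WT vehicle replicate 2, while replicates 1 and 3 were below every *Pear1*-/- vehicle library. The vehicle differences, *Pear1*-/- minus WT, were 0.42, 0.16 and 0.064, and 0.61, 0.23 and 0.19 when replicate 2 was left out. Each of the 8 differences without overlap had p = 0.1 in the exact permutation test, two-sided, the smallest that 3 libraries against 3 allow, and 0.15 after Benjamini-Hochberg adjustment over the 12 comparisons made, so this design cannot pass 0.05.

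**Figure D3:**
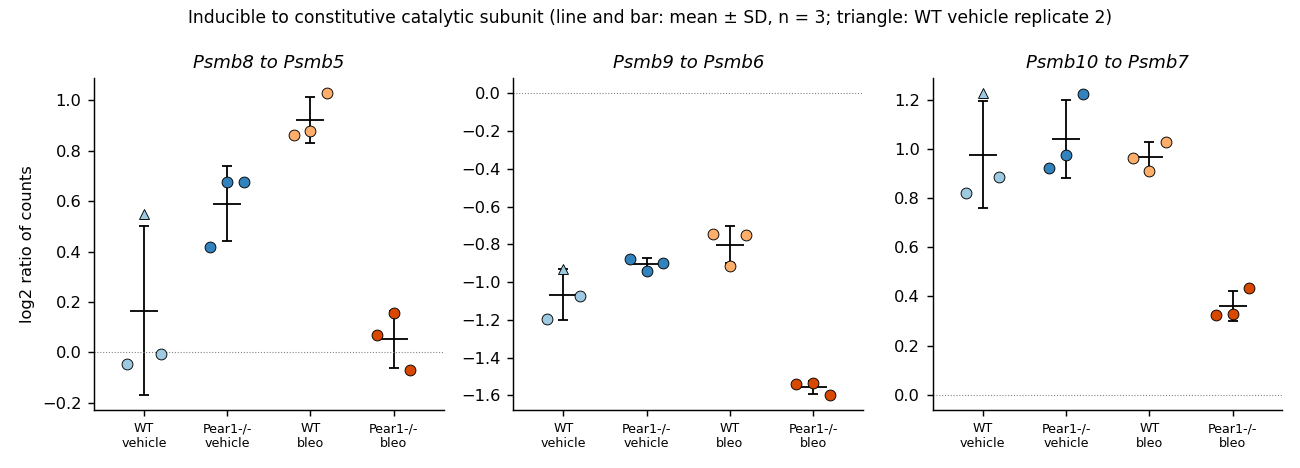
Log2 ratio of the counts of each inducible catalytic subunit to its constitutive counterpart in each library (vertical axis), by group, with means ± SD (n = 3) and WT vehicle replicate 2 as a triangle. The *Pear1*-/- bleo libraries lie below the WT bleo and the *Pear1*-/- vehicle libraries in all 3 panels. For *Psmb10* to *Psmb7*, WT bleo overlaps with WT vehicle.

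*Nlrc5* (ENSMUSG00000074151, chr8:94434356-94527272) encodes the class I transactivator and had the lowest level per length of the 10 genes, at 3.83 ± 0.168 RPKM in WT vehicle and 7.24 ± 0.347 in WT bleo (SD, n = 3). It had 255, 297 and 275 normalized counts with vehicle and 532, 533 and 577 with bleomycin in WT, against 324, 301 and 309.9 and 307, 327 and 306 under the *Pear1*-/- label. WT bleo stood far above the rest, the 2 groups labelled *Pear1*-/- overlapped, and WT vehicle was lowest. *Nlrc5* rose by 0.999 (standard error 0.078, adjusted p = 2.4e-08) in WT, and its log2 fold change in *Pear1*-/- was 0.012 (standard error 0.078, adjusted p = 0.904). Its difference between the bleo groups was the largest of the 10 genes in size, -0.82 (standard error 0.075, adjusted p = 4.52e-07).

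Between the vehicle groups the log2 difference, *Pear1*-/- minus WT, was 0.18 for *H2-K1*, 0.41 for *H2-D1* and 0.29 for *B2m*, and without WT vehicle replicate 2 it was 0.35, 0.75 and 0.52. *Tap1*, *Tap2* and *Tapbp* had 0.14, 0.28 and 0.036 with all libraries and 0.31, 0.50 and 0.14 without it. *Psmb8*, *Psmb9*, *Psmb10* and *Nlrc5* had 0.54, 0.32, 0.24 and 0.17, and 0.86, 0.63, 0.43 and 0.30. With all libraries, only *Nlrc5* had vehicle groups that did not overlap, as 19.2% of all genes did (10 of 10 and 62.1% when replicate 2 was left out), and the adjusted p of each of the 10 was above 0.05. The rise with bleomycin in WT, without that library, was 0.43 for *H2-K1*, 1.14 for *B2m*, 0.91 for *Tap1*, 1.67 for *Psmb8*, 1.24 for *Psmb9*, 0.89 for *Psmb10* and 1.12 for *Nlrc5*, and *Tapbp* was at -0.00017.

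The interaction was also read by role. For the class I chains, *H2-K1*, *H2-D1* and *B2m*, its values were -0.81, -0.92 and -0.94. For *Tap1*, *Tap2* and *Tapbp* they were -0.73, -0.73 and -0.26, and for *Psmb8*, *Psmb9* and *Psmb10* -0.99, -0.87 and -0.67. *Nlrc5* had -0.99, and *Tapbp* had the value nearest 0 and the largest adjusted p, 0.0256, a call that was lost in 8 of 19 other settings. With WT vehicle replicate 2 left out, the interactions were -1.001, -1.27 and -1.18 for the class I chains, -0.90, -0.96 and -0.38 for *Tap1*, *Tap2* and *Tapbp*, -1.32, -1.19 and -0.87 for *Psmb8*, *Psmb9* and *Psmb10*, and -1.13 for *Nlrc5*. In WT the rise of the presentation genes thus ranged over more than 1 log2 unit, from *H2-K1* at 0.26 to *Psmb8* at 1.36 among those that passed.

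Other class I heavy chains, a list of 16 of which 14 were tested, moved in both directions. With bleomycin in WT, 5 rose and 4 fell, near the shares of all genes (31.4% higher and 36.6% lower). In *Pear1*-/- 0 rose and 8 fell, where 28.9% of all genes were higher and 33.4% lower. Without WT vehicle replicate 2, 7 rose and 5 fell in WT, of 15 tested. Between the bleo groups 1 was higher and 6 were lower in *Pear1*-/-, where 22.1% of all genes were higher and 23.9% lower. These shares also apply to the lists below. *H2-M2* had 221 ± 35.2 normalized counts with vehicle and 789 ± 40.7 with bleomycin in WT, against 199 ± 24.2 and 217 ± 21.2 under the *Pear1*-/- label (SD, n = 3). It rose in WT alone at the threshold, by 1.85, and its interaction was -1.71 (standard error 0.17, adjusted p = 2.13e-06). *H2-M3*, which presents formylated bacterial peptides, rose by 0.79 in WT. *Mr1*, which presents vitamin B metabolites to T cells, went the other way. It fell in WT, with -1.05 (standard error 0.092, adjusted p = 9.82e-08), and was higher in *Pear1*-/- bleo than in WT bleo by 0.86 (standard error 0.092, adjusted p = 2.04e-06). In *Pear1*-/-, *H2-Q6*, *H2-T10* and *H2-Q7* fell, with log2 fold changes of -1.14, -0.96 and -0.87. The H2-Q and H2-T genes are related in sequence, so reads may have been split between them, which was not measured.

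Of 11 loading chaperones and trimming peptidases, 7 rose and 2 fell in WT, and 6 rose and 3 fell in *Pear1*-/-. The interaction was above 0 for 2 and below 0 for 3, or for 1 and 6 without WT vehicle replicate 2. *Lap3*, *Tpp2* and *Lnpep*, which cut or trim peptides, rose most in WT, by 1.29, 0.59 and 0.50. *Thop1*, an oligopeptidase that destroys peptides in the cytosol, rose by 0.73 in *Pear1*-/-. Between the bleo groups *Lnpep* was lower in *Pear1*-/-, at -0.71, whereas *Thop1* was higher by 0.68 and *Blmh*, an aminopeptidase that also inactivates bleomycin, by 0.50. In all, 3 of the 11 were lower and 2 higher there, near the shares of all genes.

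The rest of the 20S proteasome moved together in both genotypes. All 11 other subunits rose with bleomycin, with a median of 0.62 in WT and 0.78 in *Pear1*-/-. Between the bleo groups 6 of 11 were higher in *Pear1*-/-, *Psma6* most by 0.31 (9 of 11 when WT vehicle replicate 2 was left out of the fit), and none passed the interaction test at an adjusted p of 0.05, or 1 below 0 without WT vehicle replicate 2. Of 5 proteasome activator and assembly genes, all rose in both genotypes. *Psme1*, a subunit of the interferon-inducible PA28 activator, had 997 ± 114 normalized counts with vehicle and 2015 ± 85.1 with bleomycin in WT, against 1125 ± 56.1 and 1346 ± 45.3 under the *Pear1*-/- label (SD, n = 3). *Psme1* and its partner *Psme2* were the 2 of the 5 that were lower in *Pear1*-/- bleo, at -0.59 and -0.25, with interactions of -0.76 and -0.35. Without WT vehicle replicate 2, 3 of the 5 had an interaction below 0.

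Among 22 interferon genes, receptors, kinases and transcription factors that act on class I promoters, 14 rose and 4 fell in WT, and 4 rose and 9 fell in *Pear1*-/-. Where the mean level reached 3 on the log2 CPM scale, WT changes were largest as rises of *Jak2*, a kinase of the interferon gamma receptor, by 1.08, of *Ifngr2*, a chain of that receptor, by 1.04, and of *Irf8*, a transcription factor of myeloid and B cells, by 0.95. In *Pear1*-/- the largest were falls of *Ifnb1*, which encodes interferon beta, at -1.44 and of *Irf1* at -1.27, and a rise of *Jak2* by 0.76. *Irf1* fell in WT as well, at -0.76 (adjusted p = 0.000111). Between the bleo groups 14 of 22 were lower in *Pear1*-/- and none was higher, among them *Ifnb1* at -1.80, *Nfkb1*, which encodes a subunit of NF-kappa-B, at -0.91 and *Irf8* at -0.80. The interaction was below 0 for 16 of 22 and above 0 for none, and for 20 without WT vehicle replicate 2.

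**Figure D4:**
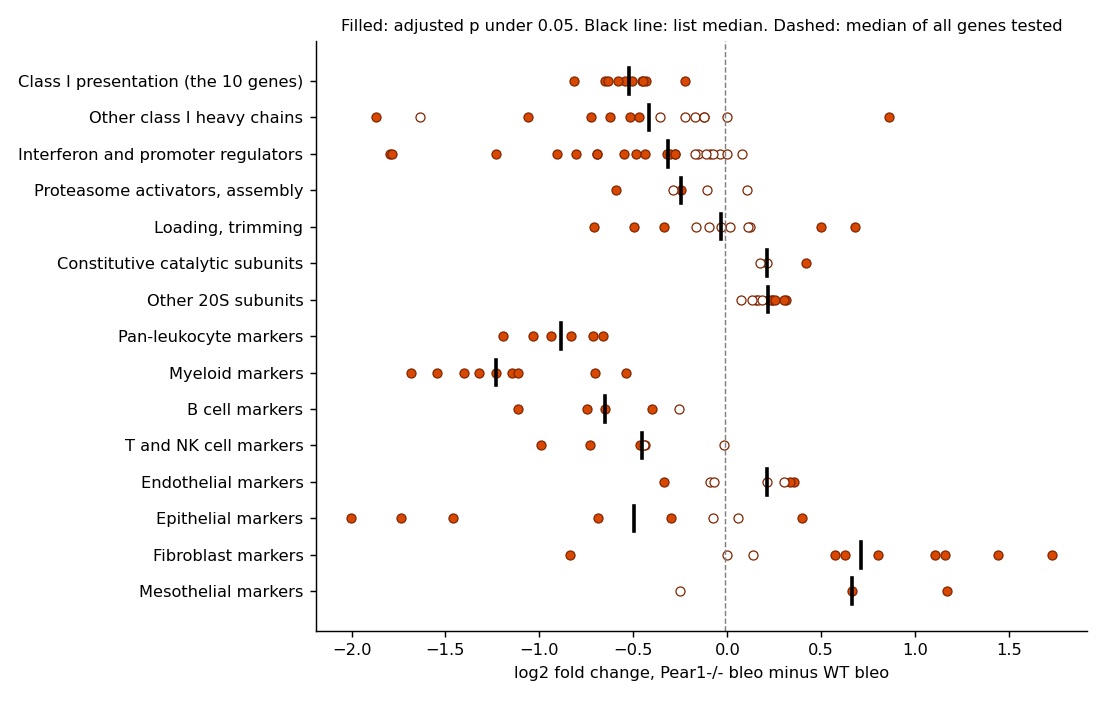
Log2 fold change between *Pear1*-/- bleo and WT bleo (horizontal axis) of each tested gene, by list. Filled points passed an adjusted p of 0.05, black lines are list medians and the dashed line is the median of all genes tested. The 10 presentation genes lie between -0.82 and -0.23, below 0 together with the pan-leukocyte and myeloid markers, while most fibroblast markers lie above 0.

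Markers of other cell types differed between the groups as well, in directions that varied by list. The sort was for *Pdgfra*, which had 4565 ± 325 normalized counts with vehicle and 1360.1 ± 29.9 with bleomycin in WT, against 4165 ± 39.1 and 2392 ± 18.8 under the *Pear1*-/- label (SD, n = 3). Yet markers of leukocytes, endothelium and epithelium were all counted, and no listed marker was at or under 3 counts in every library. *Ptprc*, the pan-leukocyte gene for CD45, had 3303 ± 479 normalized counts with vehicle and 7616 ± 97.8 with bleomycin in WT, against 3818 ± 263 and 3365 ± 109 under the *Pear1*-/- label. Over 6 pan-leukocyte markers, the summed level with vehicle lay between 11497 and 16058 normalized counts in WT and between 15844 and 16594 in *Pear1*-/-. The highest of these WT sums was that of replicate 2. With bleomycin the sums were between 40017 and 41102 for WT and between 20971 and 21259 for *Pear1*-/-. All 6 were lower in *Pear1*-/- bleo than in WT bleo, with a median of -0.89, and so were 9 of 9 myeloid markers, with a median of -1.23.

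The sum of 9 myeloid markers lay between 17559 and 23045 with vehicle and between 119465 and 121102 with bleomycin in WT, and between 22492 and 24512 and between 54200.2 and 55825 under the *Pear1*-/- label. Of B cell markers, 4 of 5, and of T and NK cell markers 4 of 6, were lower in *Pear1*-/- bleo than in WT bleo, and none was higher. Of 10 fibroblast markers, 7 were higher and 1 lower, with a median of 0.71, and their sum was between 110775 and 111827 with bleomycin in WT and between 289754 and 299294 in *Pear1*-/-. Collagen genes made up most of that sum, with *Col1a1* alone at a mean of 42471 in WT bleo and 142173 in *Pear1*-/- bleo. The myeloid sum was likewise mostly *Lyz2*, with means of 74718 and 34117 in these groups. These sums therefore follow a few genes more than a number of cells. Endothelial markers gave 2 higher and 1 lower of 7, with *Pecam1* at -0.07 (adjusted p = 0.493), epithelial markers 1 higher and 5 lower of 8, with *Epcam* at -0.30 (adjusted p = 0.035), and mesothelial markers 2 higher of 3. With bleomycin in *Pear1*-/-, all 9 myeloid markers and 4 of 6 pan-leukocyte markers rose, while 1 of the 10 presentation genes rose. There, 4 of 5 B cell markers and 6 of 6 T and NK cell markers fell and none rose, with medians of -0.56 and -1.62. Endothelial markers fell for 7 of 7 (median -0.90) and epithelial markers for 7 of 8 (-1.72, 1 rose), while 4 of 10 fibroblast markers rose and 5 fell (-0.49), and 1 of 3 mesothelial markers fell. In WT, all 9 myeloid markers, all 6 pan-leukocyte markers and 4 of 5 B cell markers rose with bleomycin, and 5 of 6 T and NK cell markers fell. Of the other lists in WT, 8 of 10 fibroblast markers fell and 2 rose (median -1.43), 7 of 7 endothelial markers fell (-1.03), 6 of 8 epithelial markers fell and 2 rose (-0.90), and 2 of 3 mesothelial markers fell. Between the vehicle groups, 2 of 6 T and NK cell markers and 1 of 8 epithelial markers were higher in *Pear1*-/-, 1 of 10 fibroblast and 1 of 3 mesothelial markers were lower, and no pan-leukocyte, myeloid, B cell or endothelial marker passed. Leaving out WT vehicle replicate 2, 6 of 6 pan-leukocyte markers (median 0.54), 6 of 6 T and NK cell markers (0.80), 4 of 5 B cell markers (0.70) and 4 of 9 myeloid markers (0.17) were higher there, as all 10 presentation genes were. So were 6 of 8 epithelial markers (0.37), 5 of 7 endothelial markers (0.32) and 5 of 10 fibroblast markers (0.12), with 3 fibroblast markers and 1 of 3 mesothelial markers lower. The part of other cell types in the results for the presentation genes was not tested.

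Across the 12 libraries, the 45 pairwise Pearson correlations of log2 CPM among the 10 genes had a median of 0.73 and ran from -0.41 for *Tapbp* and *Psmb8* to 0.98 for *Psmb9* and *Psmb10*. The correlation with *Ptprc* was 0.97 for *Nlrc5*, 0.95 for *B2m*, 0.93 for *Tap1*, 0.87 for *Psmb10*, 0.86 for *Psmb9* and 0.74 for *Psmb8*. It was 0.69 for *H2-D1*, 0.65 for *H2-K1*, 0.52 for *Tap2* and 0.080 for *Tapbp*. The correlation with *Pdgfra* was -0.90 for *Nlrc5* and *Psmb8*, -0.88 for *B2m*, *Tap1* and *Psmb10*, and -0.87 for *Psmb9*. For *H2-D1*, *H2-K1*, *Tap2* and *Tapbp* it was -0.38, -0.14, -0.067 and 0.48. The 12 points share their 4 groups, and these values are a description only. Outside the lists, the 5 genes whose log2 CPM followed the mean pattern of the 10 most closely were *Zfp36* (r = 0.991), *Syk* (0.989), *Gpr132* (0.987), *Themis2* (0.985) and *Gm26917* (0.982), over 12 libraries. *Syk*, a kinase of B cell and myeloid receptors, had mean normalized counts of 1281 with vehicle and 2369 with bleomycin in WT, and of 1626 and 1239 under the *Pear1*-/- label.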

How the data were processed

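Cd140a+ cells were sorted from mouse lung, RNA was amplified with the SMART-Seq v4 kit, and the authors aligned reads to GRCm38 with HISAT2 version 2.1. The counting program and its strand setting are not given in the sources used here. The authors deposited raw counts for 40760 genes in 12 libraries, and a second table of normalized signal in which each count is divided by a size factor of its library, between 0.825 and 1.16, as was checked for every gene. Normalized counts in the text are these deposited values. Genes were tested on the counts with edgeR 4.0.16 (R 4.3.3), with TMM factors, the filter filterByExpr, all 12 libraries, 1 mean per group and the quasi-likelihood test, two-sided, with Benjamini-Hochberg adjustment over 17418 genes. Ratios were tested by exact permutation with scipy 1.17.1. A floor of 3 counts corresponded to between 0.287 and 0.448 CPM, which covers counting error only. The scripts were tested on simulated data. DESeq2 1.42.0, limma 3.58.1 on log2 of the normalized signal plus 1 or 0.5, other factors, no filter, a replicate block and leaving out each library were alternatives. RPKM used exon lengths of GENCODE M21, in which 40394 gene identifiers were found. Promoters came from RefSeq, GRCm38.p6.

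All 10 genes and the 3 constitutive subunits were always named. From each other list at most the 3 genes with the largest change in a comparison were named, at an adjusted p under 0.05 and a mean log2 CPM of at least 3, *H2-M3* in the promoters and *Irf1* in WT excepted. From the markers *Pdgfra*, *Ptprc*, *Pecam1* and *Epcam* were named, and *Col1a1* and *Lyz2* for their weight in a sum. The genes and lists were chosen with earlier results of these data known.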

Additional observations from a re-analysis of the deposited data

Results flagged for a closer look

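The difference between the bleomycin effects in the 2 genotypes passed edgeR's interaction test (adjusted p under 0.05) for each of the 10 presentation genes, which is what marks them for a closer look, and 17.9% of all genes tested were above and 19.1% below 0 in that test. The log2 interaction was -0.94 for *B2m*, -0.92 for *H2-D1*, -0.81 for *H2-K1*, -0.99 for *Nlrc5*, -0.67 for *Psmb10*, -0.99 for *Psmb8*, -0.87 for *Psmb9*, -0.73 for *Tap1*, -0.73 for *Tap2* and -0.26 for *Tapbp*. Without WT vehicle replicate 2 all 10 were further from 0, from -0.38 for *Tapbp* to -1.32 for *Psmb8*. The call for *Tapbp* was lost in 8 of the 19 other settings, and no call was lost for the other 9 genes. In the same test all 6 pan-leukocyte markers and all 9 myeloid markers were below 0, with medians of -1.18 and -1.37. Below 0 were also 5 of 5 B cell markers (median -1.001), 5 of 6 T and NK cell markers (-0.97), 5 of 8 epithelial markers (-0.96) and 1 of 7 endothelial markers (-0.042). Of the others, 6 of 10 fibroblast markers (0.93) and 1 of 3 mesothelial markers were above 0 and 1 fibroblast marker was below. Without WT vehicle replicate 2, 4 of 7 endothelial markers (-0.32) and 6 of 6 T and NK cell markers (-1.39) were below 0. Fibroblast markers were then 6 above and 3 below 0 (0.84), and the counts for the other marker lists were the same. The part of these cell types in the result was not tested.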

How the results depend on the processing

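Of 990 values for single presentation genes under an alternative, 915 kept their direction and their side of the threshold, 34 lost and 21 gained the call, and 20 changed sign. Lower calls in *Pear1*-/- bleo against WT bleo stayed at 10 of 10 with other factors, DESeq2 and the replicate block, and were 9 with limma and 9 without a filter. Leaving out single libraries gave 8 to 10, with 8 without WT bleo replicate 2, WT bleo replicate 3 or *Pear1*-/- bleo replicate 1, and 9 without *Pear1*-/- bleo replicate 2 or 3. With upper quartile factors, which moved the median of all genes with bleomycin in WT from -0.071 to -0.22, the median of the 10 genes in WT was 0.58, and 1 gene, *Tapbp*, was lower there, as it was (1) with DESeq2. In *Pear1*-/- the genes that rose with bleomycin numbered 0 with DESeq2 size factors, upper quartile factors, DESeq2 and limma at either pseudocount. Between the vehicle groups 7 were higher without a filter on low counts, where 5.66% of all genes were, against 0.855% with it. Leaving out single libraries gave medians of 0.67 to 0.90 for bleomycin in WT, 0.19 to 0.46 between the vehicle groups and -1.06 to -0.76 for the interaction, 0 to 1 genes that rose in *Pear1*-/- and 0 to 10 higher between the vehicle groups, with the extremes of 0.90, 0.46, -1.06 and 10 from leaving out WT vehicle replicate 2. These fits tested more genes, because the filter then needs 2 libraries and not 3. They tested 17710 and 17644 genes without WT vehicle replicate 1 or 3, and between 20390 and 20453 without any other library. The shares of all genes in these fits are therefore taken over unlike sets of genes.

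Signs changed only for values near 0 that were not called. With bleomycin in WT, *Tapbp* was 0.034 without a filter. With bleomycin in *Pear1*-/-, *Nlrc5* was -0.0036 with DESeq2 size factors, -0.055 with upper quartile factors and -0.00037 in the groups compared alone, *Psmb10* was -0.030 and *Tap1* -0.038 with upper quartile factors, and *B2m* was 0.034 without a filter. Leaving out single libraries gave -0.039 to 0.019 for *Nlrc5*, -0.055 to 0.11 for *Psmb10* and -0.068 to 0.064 for *Tap1*. *Tapbp* between the vehicle groups was -0.043 with upper quartile factors. The log2 ratio of *Psmb10* to *Psmb7* ran from -0.088 to 0.11 for bleomycin in WT and from -0.026 to 0.19 between the vehicle groups. The cause was not tested.

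Libraries with the same replicate number did not deviate together, with correlations of deviations from -0.293 to 0.181 over 18 pairs, 2 of them above 0.1. The labels give no pairing, and with 3 libraries a group these correlations cannot show whether same-numbered libraries shared a batch. With the replicate block the medians were 0.73, -0.0020, -0.53, 0.26 and -0.85 for bleomycin in WT, bleomycin in *Pear1*-/-, the bleo groups, the vehicle groups and the interaction, and the counts of genes called were 8, 5, 10, 0 and 10, as without it. A fit of only the groups compared was not run for the interaction, which uses all 4. With 3 libraries a group, exact tests of single ratios cannot pass 0.05.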
